A study of Mus musculus with 23 samples.

Results

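Transcripts of 5 genes that were more abundant in MC38 tumors of non-responder than of responder mouse lines are described here in every tumor: Cpa4, Itga7, Gap43, Cyp2d22 and 5330416C01Rik. They are 5 of the 26869 genes in the table, and they were listed by name because earlier work on the same tumors had shown them to be higher in the non-responder lines. The class difference of these genes therefore chose them, and it is given below as a description with no test. Tested were their change with antibody, their differences between lines of 1 class, and their relation to leukocyte transcripts among tumors of 1 class. These are not the comparison that chose the genes, but they come from the same tumors and are not independent of the choice.

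The study engrafted MC38, a mouse colon carcinoma cell line of C57BL/6 origin, into F1 hosts of Collaborative Cross (CC) lines to look for host genes that shape the response to immune checkpoint inhibition, and it measured RNA from 23 of these tumors. The CC is a panel of recombinant inbred mice descended from 8 founder strains, so that each F1 host carries a C57BL/6J genome and a CC genome. The hosts were female and 8 to 12 weeks old, and MC38 cells were placed under the skin. At a tumor size of 75 to 110 mm3 a mouse received a single 200 µg dose of anti-PD-1 antibody (aPD1) or of its isotype control, and tumors were harvested after 48 h.

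The responder (R) hosts were C57BL/6J F1 crosses of CC001/UncJ, CC002/UncJ and CC075/UncJ, called CC001F1, CC002F1 and CC075F1. The non-responder (NR) hosts were the crosses of CC036/UncJ, CC079/TauUncJ and CC080/TauUncJ, called CC036F1, CC079F1 and CC080F1. The sample labels do not give the class of a line, which was taken from the paper. Each line had 2 tumors with isotype and 2 with aPD1, except CC080F1, which had 1 with aPD1, giving 12 R tumors and 11 NR tumors. All tumors came from 1 cancer cell line, and the labels do not say how the tumors of a group were raised or batched, so p-values measure the spread between these samples, which may be partly technical. Every tumor mixes cancer cells with host cells, and in such bulk samples fewer cells of a type and less RNA per cell cannot be told apart.

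The genes do unlike things. Cpa4 encodes a secreted metallocarboxypeptidase that trims hydrophobic residues from the ends of peptides. Itga7 encodes the integrin α7 chain, which pairs with integrin β1 to form a laminin receptor best known from skeletal muscle. Gap43 encodes a membrane-associated phosphoprotein of growing axons and of Schwann cells, Cyp2d22 encodes a cytochrome P450 of the CYP2D family of drug and xenobiotic oxidases, and 5330416C01Rik is annotated as a long intergenic non-coding RNA.

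The genes lie on 5 chromosomes of GRCm38 (GENCODE annotation). Cpa4 (ENSMUSG00000039070) spans chr6:30568369-30592418 on the plus strand and Itga7 (ENSMUSG00000025348) spans chr10:128933818-128958282 on the plus strand. Gap43 (ENSMUSG00000047261) spans chr16:42248442-42340651, Cyp2d22 (ENSMUSG00000061740) spans chr15:82370527-82380260 and 5330416C01Rik (ENSMUSG00000054944) spans chr13:97733498-97747411, all 3 on the minus strand.

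RefSeq promoter sequences on GRCm38.p6 were at hand for only 2 of the 5, and both are shown. These are also the 2 genes of the set with the largest class differences, 1 coding for protein and 1 not. Each is the 250 bases that end just before the annotated start, written 5′ to 3′ on the strand of the gene. Capitals mark matches, on either strand, to a TATA box (TATAAA), a GC box (GGGCGG), an AP-1 site (TGANTCA), a TEAD site (GGAATG) or an interferon-γ-activated (GAS) element (TTCNNNGAA). The Cpa4 stretch is chr6:30568119-30568368 and the 5330416C01Rik stretch is chr13:97747412-97747661.
Cpa4: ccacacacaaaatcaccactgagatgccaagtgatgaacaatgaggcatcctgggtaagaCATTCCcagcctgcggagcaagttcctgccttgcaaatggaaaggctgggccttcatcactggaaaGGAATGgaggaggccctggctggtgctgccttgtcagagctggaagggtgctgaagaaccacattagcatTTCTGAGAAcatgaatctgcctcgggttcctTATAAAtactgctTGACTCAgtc
5330416C01Rik: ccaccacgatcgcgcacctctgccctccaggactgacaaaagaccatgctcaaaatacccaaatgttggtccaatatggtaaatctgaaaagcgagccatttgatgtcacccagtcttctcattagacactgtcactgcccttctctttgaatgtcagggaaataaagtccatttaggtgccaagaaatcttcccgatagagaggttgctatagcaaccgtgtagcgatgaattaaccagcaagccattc
The Cpa4 stretch held 1 TATA box that began 23 bases before the start, 1 AP-1 site at 10 bases before it, 1 GAS element at 54 bases before it and 2 TEAD sites, and it held no GC box. None of these letters occurred in the 5330416C01Rik stretch. Both stretches also held 2 E-boxes (CANNTG, not capitalized). Of 32851 mouse promoters of the same length, 12.4% held a TATA box, 32.7% a GC box, 6.75% an AP-1 site, 12.6% a TEAD site, 7.02% a GAS element and 66.2% an E-box. The GC content was 50.8% for Cpa4 and 46% for 5330416C01Rik, against a median of 52.4% over all promoters. These are matches of letters, and binding was not measured.

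Values below are normalized counts, that is expected counts divided by a size factor that scales each library for depth. The libraries held 14494014 to 71868253 expected counts (median 42327589) and formed 17 deep libraries (at least 37242363 counts; 10 R and 7 NR) and 6 shallow ones (at most 18354585 counts; 2 R and 4 NR). Since depth was partly mixed with class, values from the deep libraries alone are given beside the pooled ones. All 5 genes had enough counts to be tested, and none was at 0 in any tumor.

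**Figure D1:**
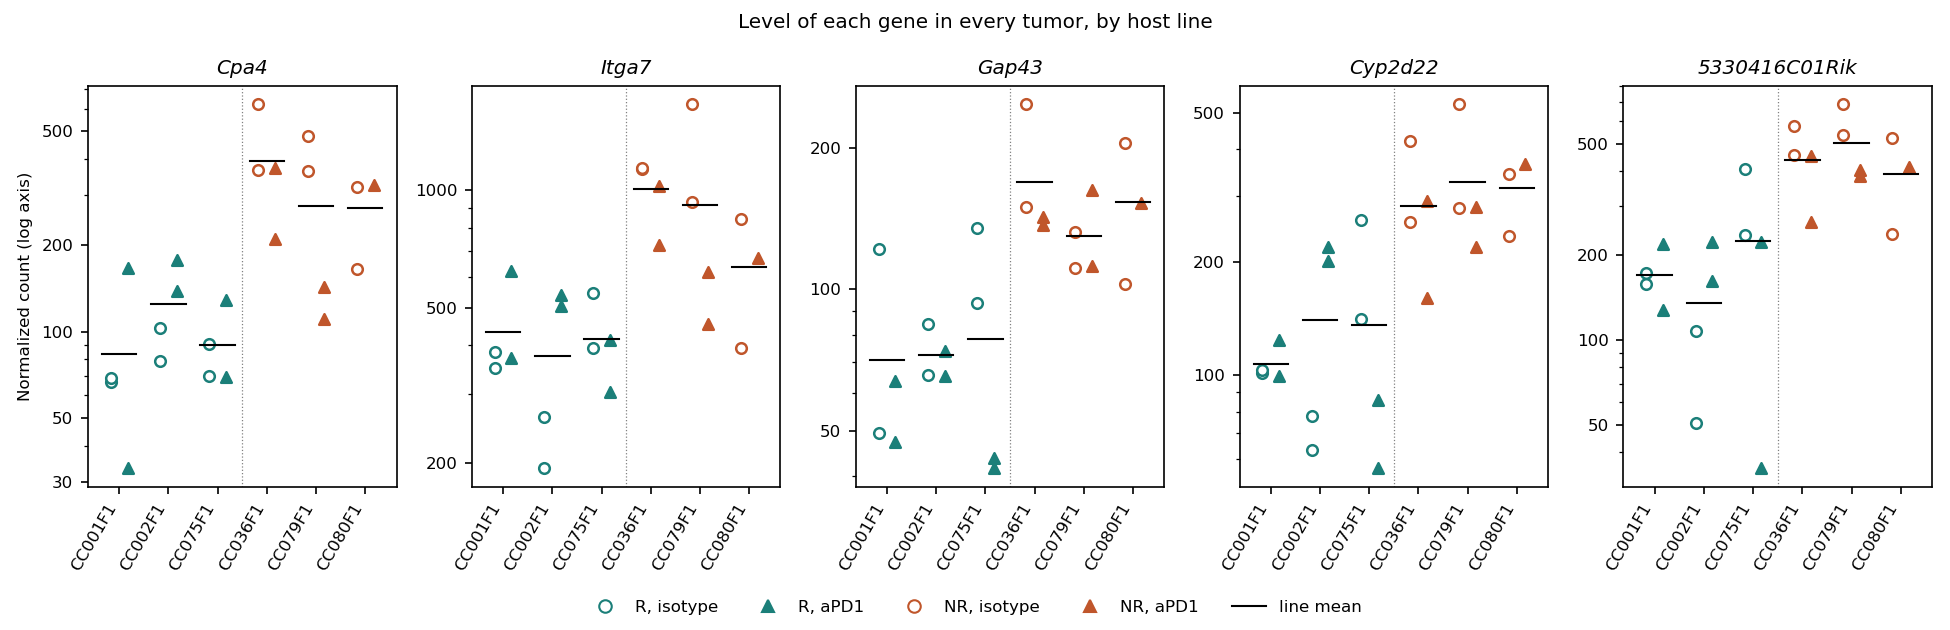
Normalized count (log axis) of each gene in every tumor by host line, with R lines in green and NR lines in orange, open circles for isotype, filled triangles for aPD1 and a bar for the line mean. In all 5 panels each NR line mean lies above each R line mean, while single tumors of the classes overlap, as for Cpa4 between 111 and 177.5.

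Cpa4, the carboxypeptidase, ran from 33.3 through a median of 84.9 to 177.5 normalized counts in the 12 R tumors. In the 11 NR tumors it ran from 111 through a median of 325 to 622. The classes overlapped, with 8 of 11 NR tumors above every R tumor and 8 of 12 R tumors below every NR tumor. Isotype tumors were the more widely separated, with 79.6 ± 14.4 (SD, n = 6) in R against 386 ± 154 (SD, n = 6) in NR and no overlap between 102.9 and 165. With aPD1 the means were 119 ± 56.6 (SD, n = 6) and 233 ± 113 (SD, n = 5), and the tumors overlapped. Over all tumors the log2 difference of R minus NR was -1.65 ± 0.29 (SE), a 3.14-fold higher level in NR, and it was -1.39 in the deep libraries.

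Itga7, the laminin receptor chain, ran from 193 through 389 to 621 normalized counts in R tumors and from 394 through 843 to 1665 in NR tumors. It was the gene with the highest counts of the set, and with 8092 exonic bases also the longest of them, and the classes overlapped between 394 and 621. Of the NR tumors 8 of 11 lay above every R tumor. The means were 355 ± 121 (SD, n = 6) in R against 1018 ± 418 (SD, n = 6) in NR with isotype. They were 459 ± 117 (SD, n = 6) in R against 699.6 ± 209 (SD, n = 5) in NR with aPD1. The log2 difference was -1.09 ± 0.23 (SE), a 2.13-fold higher level in NR, and -0.89 in the deep libraries.

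Gap43, the growth-associated protein, ran from 41.6 through 65.5 to 135 normalized counts in R tumors and from 102 through 142 to 247 in NR tumors. Only 2 R tumors, 1 of CC001F1 and 1 of CC075F1 and both with isotype, reached the range of the NR tumors. With aPD1 the classes did not overlap, at 56 ± 13.5 (SD, n = 6) in R with a highest value of 73.9, against 141 ± 19.1 (SD, n = 5) in NR with a lowest value of 112. With isotype the means were 91.6 ± 32.6 (SD, n = 6) and 158 ± 57 (SD, n = 6), and the tumors overlapped. Gap43 had the smallest class difference of the 5, with a log2 difference of -1.03 ± 0.18 (SE), a 2.04-fold higher level in NR, and -1.04 in the deep libraries.

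Cyp2d22, the cytochrome P450, ran from 56.5 through 102 to 259 normalized counts in R tumors and from 160.4 through 280 to 527 in NR tumors. The overlap came from 3 R tumors, the 2 of CC002F1 with aPD1 and 1 of CC075F1 with isotype, which reached 201 or more. With isotype the means were 124 ± 71.3 (SD, n = 6) in R against 344 ± 113 (SD, n = 6) in NR. With aPD1 they were 131 ± 65.6 (SD, n = 6) in R against 263 ± 77.2 (SD, n = 5) in NR. The log2 difference was -1.23 ± 0.23 (SE), a 2.35-fold higher level in NR, and -0.90 in the deep libraries.

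The non-coding 5330416C01Rik ran from 34.9 through 168 to 406 normalized counts in R tumors and from 238 through 451 to 690 in NR tumors. A single R tumor, CC075F1 with isotype at 406, lay inside the NR range, and 11 of 12 R tumors lay below every NR tumor. The means were 189 ± 124 (SD, n = 6) in R against 503 ± 151 (SD, n = 6) in NR with isotype, and with aPD1 they were 165 ± 74.7 (SD, n = 6) and 382 ± 71.2 (SD, n = 5). With aPD1 the classes did not overlap, the highest R value being 223 and the lowest NR value 263. The log2 difference was -1.32 ± 0.29 (SE), a 2.49-fold higher level in NR, and -1.20 in the deep libraries.

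Per kilobase of exon the levels of the 5 genes lay closer together than their counts. In NR tumors the mean was 122 ± 36 (SD) normalized counts per kb for 5330416C01Rik, 115 ± 55.8 for Cpa4, 108 ± 45 for Itga7, 98.7 ± 28.2 for Gap43 and 78.6 ± 26.2 for Cyp2d22. In R tumors it was 50.3 ± 15.6 for Itga7, 48.4 ± 19.8 for Gap43, 48.1 ± 26.7 for 5330416C01Rik, 36.3 ± 16.2 for Cpa4 and 32.7 ± 16.7 for Cyp2d22. Neighbours in either order differed by less than the SD of a gene.

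Among all 17643 genes with an adjusted p in the class comparison, 14.4% differed between classes in DESeq2, and 6.78% were lower in R. The members were chosen from that comparison, so nothing is read from their place in it. Ordered by the log2 difference among the 935 genes that were lower in R, had a mean of at least 100 normalized counts and had line means that did not overlap, Cpa4 stood at place 2, 5330416C01Rik at place 4, Cyp2d22 at place 5, Itga7 at place 10 and Gap43 at place 14. The line means separated the classes for 5 of 5 members, which the choice favoured, so nothing is read from this either. They did so, with NR higher, for 15.2% of 12055 genes with a mean of at least 100 normalized counts. The tumors themselves separated the classes for none of the 5 and for 0.0498% of those genes.

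The order of the lines within a class differed from gene to gene. CC036F1 had the highest mean for Cpa4, at 393 ± 170 (SD, n = 4), for Itga7, at 1007 ± 194 (SD, n = 4), and for Gap43, at 169 ± 52.5 (SD, n = 4). CC079F1 had the highest mean for Cyp2d22, at 327 ± 137 (SD, n = 4), and for 5330416C01Rik, at 502 ± 143 (SD, n = 4). CC080F1, with 3 tumors, was the lowest NR line for Cpa4 (270.0 ± 91), Itga7 (636 ± 226) and 5330416C01Rik (391 ± 143).

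Among the R lines CC001F1 was lowest for Cpa4 (83.9 ± 57.6, n = 4), Gap43 (70.6 ± 34.8) and Cyp2d22 (107 ± 11.6), and CC002F1 was lowest for Itga7 (375 ± 173) and 5330416C01Rik (136 ± 73.6). The highest R line mean was 125 ± 43 (SD, n = 4) in CC002F1 for Cpa4, and 432 ± 127 in CC001F1 for Itga7. It was 78.4 ± 44.7 in CC075F1 for Gap43, 141 ± 81.4 in CC002F1 for Cyp2d22 and 225 ± 152 in CC075F1 for 5330416C01Rik. In each of the 5 orders, every line overlapped the next one in its tumor values.

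Whether lines of 1 class differed was tested with the DESeq2 likelihood ratio test of line beside antibody. Choice by class difference favours genes with little spread between lines of a class, so a lack of calls may partly follow from it. None of the 5 genes passed in the R lines (DESeq2 adjusted p = 1 for each, lowest unadjusted p = 0.324), where 1.05% of 19074 genes did, and edgeR, which called 0.35% of genes there, called none either. None passed in the NR lines, where 9.46% of 16936 genes did, with DESeq2 adjusted p = 0.711 for Cpa4, 0.575 for Itga7, 0.776 for Gap43, 0.932 for Cyp2d22 and 0.703 for 5330416C01Rik. At an unadjusted p under 0.05 none passed in DESeq2 and Itga7 did in edgeR, which called 4.42% of all genes there and no member after adjustment. The Cpa4 value hung on 1 library: without the single CC080F1 tumor given aPD1 its adjusted p in the NR lines was 0.0274.

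Replicate tumors of a line and antibody set the error of all of this. Over 11 pairs the median fold between replicates was 1.32 for Cpa4, 1.36 for Itga7, 1.35 for Gap43, 1.46 for Cyp2d22 and 1.70 for 5330416C01Rik. The widest pairs were the CC075F1 tumors with aPD1, which differed 6.39-fold in 5330416C01Rik (34.9 and 223), and the CC001F1 tumors with aPD1, which had 33.3 and 167 normalized counts of Cpa4.

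The antibody comparison asked whether 48 h of PD-1 blockade changed these genes, and no member passed the DESeq2 test over all lines, in which 2.79% of 16638 genes were called and 0.234% were lower with aPD1. Gap43 had the largest log2 change of aPD1 minus isotype, -0.42 ± 0.19 (SE), with a 95% interval of -0.80 to -0.05, an unadjusted p of 0.0281 and a DESeq2 adjusted p of 0.264. The log2 change was -0.07 ± 0.30 (SE) for Cpa4 (interval -0.67 to 0.53, adjusted p = 0.958) and -0.06 ± 0.24 for Itga7 (interval -0.52 to 0.40, adjusted p = 0.952). It was -0.15 ± 0.24 (SE) for Cyp2d22 (interval -0.62 to 0.32, adjusted p = 0.852) and -0.20 ± 0.31 for 5330416C01Rik (interval -0.80 to 0.40, adjusted p = 0.844). The intervals of 4 genes include 0 and that of Gap43 does not, and Gap43 was the 1 gene of the 5 with an unadjusted p under 0.05, in DESeq2 as in edgeR, which called no member and 0.0569% of all genes.

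In the deep libraries the log2 antibody change was 0.28 for Cpa4, 0.16 for Itga7 and 0.24 for Cyp2d22, each of the opposite sign to the pooled value. Gap43 and 5330416C01Rik kept their sign there.

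The changes by line, differences of mean log2(normalized count + 1) between 2 tumors and 2 without a test, ran in both directions. In CC002F1, isotype tumors held 79.2 and 103 and aPD1 tumors 178 and 139 normalized counts of Cpa4, a log2 change of 0.79. In the same line the log2 change was 1.21 for Itga7, 1.57 for Cyp2d22 and 1.35 for 5330416C01Rik, while Gap43 changed by -0.10. In CC079F1 the isotype tumors held 363 and 480 and the aPD1 tumors 111 and 143 normalized counts of Cpa4, a log2 change of -1.72, and Itga7 changed by -1.23, from a mean of 1299 to 537.

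In CC075F1 the larger changes were in other genes. There Gap43 was at 93.4 and 135 normalized counts in isotype tumors and at 43.6 and 41.6 in aPD1 tumors, a log2 change of -1.38, Cyp2d22 changed by -1.45 and 5330416C01Rik by -1.79, while Cpa4 changed by 0.25. In CC036F1 all 5 genes had a negative log2 change, from -0.40 for Itga7 to -0.76 for Cpa4, and in CC080F1, with a single aPD1 tumor, the change ran from 0.07 for Gap43 to 0.50 for Cpa4. For Gap43 in that line the means of the counts themselves were 154 with isotype and 153 with aPD1.

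Fitted over the lines of a class, Cpa4 changed by 0.56 ± 0.32 (SE) on the log2 scale with aPD1 in R lines and by -0.78 ± 0.40 in NR lines, and Itga7 by 0.41 ± 0.23 and -0.57 ± 0.32. Gap43 changed by -0.72 ± 0.28 in R lines and -0.13 ± 0.24 in NR lines, Cyp2d22 by 0.08 ± 0.37 and -0.37 ± 0.24, and 5330416C01Rik by 0.00 ± 0.54 and -0.40 ± 0.21. Whether these changes differ between the classes was not tested.

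**Figure D2:**
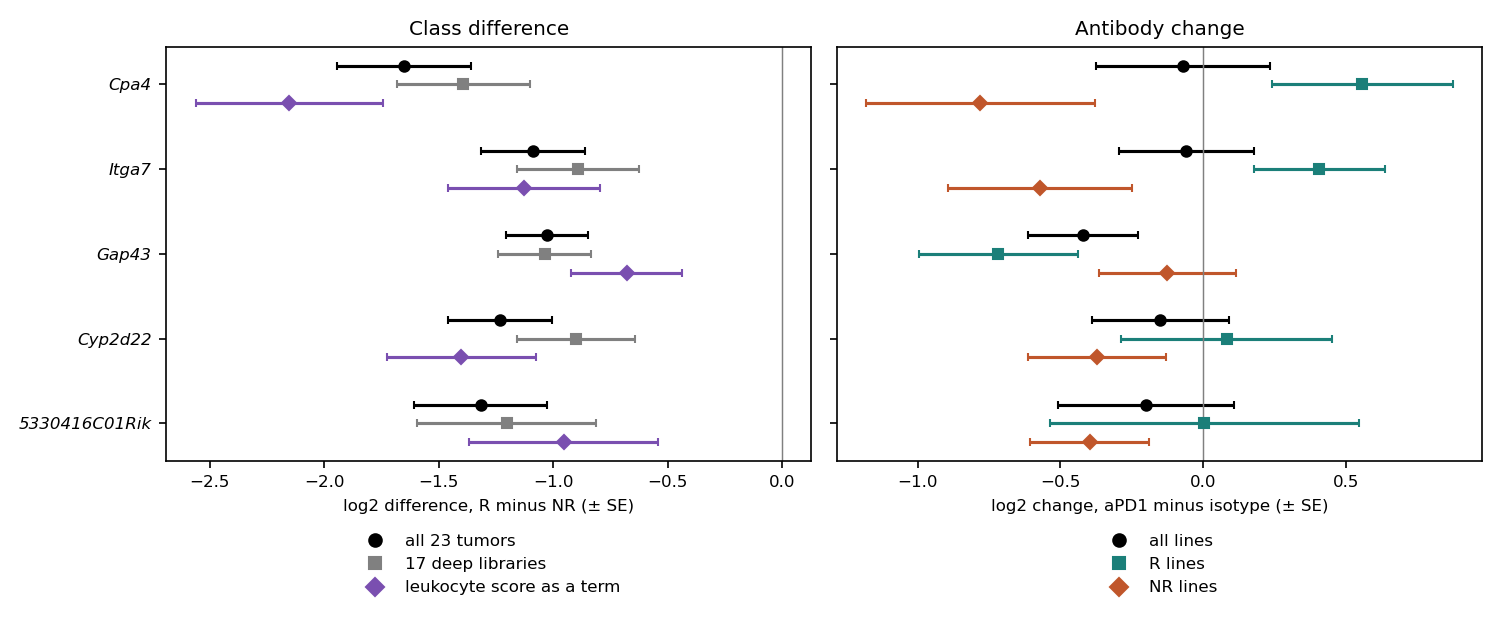
Left, log2 difference of R minus NR for each gene with its SE over all 23 tumors (black), in the 17 deep libraries (grey) and with the leukocyte score as a term (purple); right, log2 change of aPD1 minus isotype with its SE over all lines (black), R lines (green) and NR lines (orange). Every point on the left lies below 0, from -2.15 to -0.68, while the points on the right lie on both sides of 0.

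Leukocyte transcripts were higher in R tumors. In libraries scaled to a common depth, more transcript of 1 cell type leaves a smaller share for the others. The 5 genes were therefore read against leukocyte transcripts, as markers of immune infiltrate. By flow cytometry of MC38 tumors from these lines, the paper found no significant class difference in the share of CD45+ cells with either antibody. Cell shares and RNA levels are unlike measures. A leukocyte score, the mean log2(normalized count + 1) of 10 genes, had a mean of 11.87 ± 0.36 (SD) over the 12 R tumors and of 11.32 ± 0.23 (SD) over the 11 NR tumors, and 7 R tumors scored above every NR tumor. All 10 genes of that list, among them Ptprc, the pan-leukocyte phosphatase CD45, were higher in R, as were 7.66% of all genes tested in DESeq2. Of the T cell genes 7 of 8 were higher in R, with Cd8a at a log2 difference of 1.78 ± 0.39 (SE), and of the macrophage genes 7 of 8 were, with C1qb at 0.65 ± 0.14. Shisal2b, which the study uses as a marker of MC38 cells, had a mean of 793 ± 202 (SD) normalized counts over the R tumors and 696 ± 179 (SD) over the NR tumors, and its log2 difference of 0.20 ± 0.14 (SE) did not pass (DESeq2 adjusted p = 0.361).

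The 1197 genes that were lower in R had a median log2 difference of -0.28, which became -0.20 with the leukocyte score as a term. With that term Cpa4 was at -2.15 ± 0.41 (SE), Itga7 at -1.13 ± 0.33 and Cyp2d22 at -1.40 ± 0.32, each at least as far from 0 as without it. Gap43 was at -0.68 ± 0.24 and 5330416C01Rik at -0.95 ± 0.41, closer to 0 than without it. The score itself differs between the classes, so the term and the class share part of what they account for, and the number of class calls over all genes was 2548 without the term and 106 with it.

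Within a class the difference that chose the genes is absent, but the tumors are the same and the gene lists followed earlier results. There 10 relations, 5 genes in 2 classes, were tested by permutation. Over all tumors of a class none passed after adjustment over the 10, and r was negative for 6 of the 10. In R tumors the score was higher with aPD1, at 12.10 ± 0.36 (SD, n = 6) against 11.63 ± 0.12 (SD, n = 6) with isotype, so the antibody and the score cannot be told apart there. In NR tumors the score was 11.34 ± 0.19 (SD, n = 5) with aPD1 and 11.31 ± 0.29 (SD, n = 6) with isotype. Cpa4 had the highest correlation, with Pearson r = 0.60 (permutation p = 0.0419, adjusted p = 0.221) and Spearman rho = 0.50 (permutation p = 0.0985, adjusted p = 0.246) over 12 R tumors. Without the 2 tumors farthest from the median score r was 0.46, and in the 10 deep libraries it was 0.61. After line means were subtracted r was 0.78 (permutation p adjusted = 0.0194), while rho was 0.62 and did not pass (permutation p adjusted = 0.188). Cpa4 too was higher with aPD1 in R tumors, at a mean of 119 normalized counts against 79.6. The permutation exchanged isotype and aPD1 tumors freely, also across lines, so the part of the antibody in these values was not tested. In NR tumors Cpa4 had values of the other sign, with r = -0.30 (permutation p = 0.376, adjusted p = 0.538) and rho = -0.48 (permutation p = 0.139, adjusted p = 0.278). There r was -0.08 without the 2 farthest tumors and -0.42 in the 7 deep NR libraries.

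Itga7 had the lowest correlation, with r = -0.58 (permutation p = 0.0612, adjusted p = 0.221) and rho = -0.73 (permutation p = 0.0143, adjusted p = 0.143) over 11 NR tumors. It was -0.33 without the 2 farthest tumors and -0.76 in the 7 deep NR libraries. In R tumors Itga7 had r = 0.39 (permutation p = 0.204, adjusted p = 0.366) and rho = 0.57 (permutation p = 0.056, adjusted p = 0.246), of the other sign, and r was 0.71 without the 2 farthest tumors and 0.38 in the deep libraries. Single tumors decided this value: r was 0.23 without the second CC001F1 aPD1 tumor, and without the first CC075F1 aPD1 tumor r was 0.76 (permutation p adjusted = 0.073) and rho 0.85 (permutation p adjusted = 0.0080). In NR tumors rho was -0.85 (permutation p adjusted = 0.038) without the second CC036F1 aPD1 tumor, while r there was -0.65 (permutation p adjusted = 0.212).

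Gap43, like 5330416C01Rik below, had negative values in both classes, with r = -0.54 (permutation p = 0.0663, adjusted p = 0.221) and rho = -0.52 (permutation p = 0.0891, adjusted p = 0.246) in R tumors. In NR tumors it had r = -0.42 (permutation p = 0.204, adjusted p = 0.366) and rho = -0.08 (permutation p = 0.819, adjusted p = 0.886). Without the 2 farthest tumors r was -0.20 in R and 0.57 in NR, so the relation rests on those tumors, and in the deep libraries it was -0.64 and -0.72.

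Cyp2d22 had r = 0.02 (permutation p = 0.945, adjusted p = 0.945) and rho = 0.18 (permutation p = 0.574, adjusted p = 0.819) in R tumors, and r = 0.19 (permutation p = 0.577, adjusted p = 0.641) and rho = 0.08 (permutation p = 0.819, adjusted p = 0.886) in NR tumors. For 5330416C01Rik r was -0.38 (permutation p = 0.2196, adjusted p = 0.366) and rho -0.05 (permutation p = 0.886, adjusted p = 0.886) in R tumors, and r was -0.20 (permutation p = 0.556, adjusted p = 0.641) and rho -0.35 (permutation p = 0.3003, adjusted p = 0.5005) in NR tumors. Without the 2 farthest tumors r was 0.41 and 0.37 for Cyp2d22 and 0.36 and 0.24 for 5330416C01Rik, in R and NR. In the deep libraries r was 0.05 and 0.33 for Cyp2d22, and -0.39 and -0.31 for 5330416C01Rik.

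**Figure D3:**
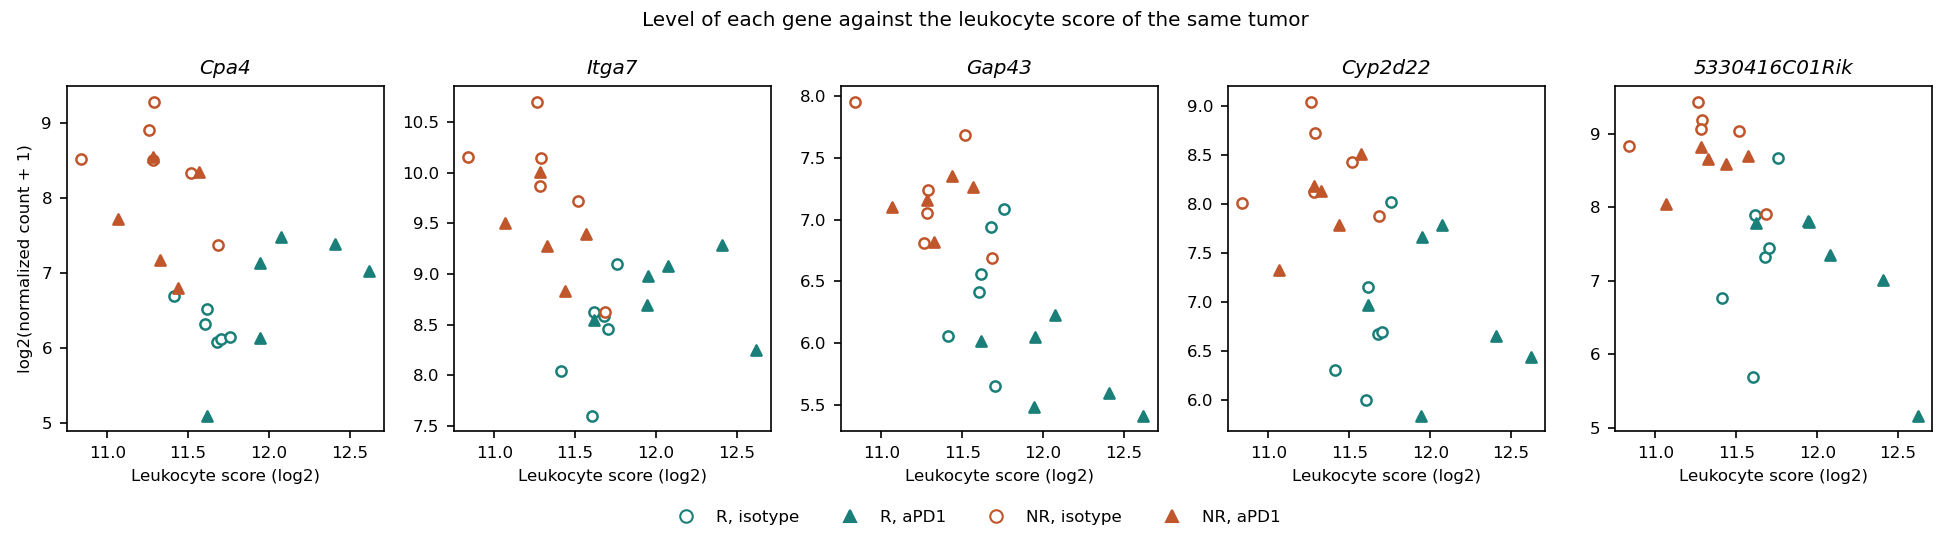
log2(normalized count + 1) of each gene against the leukocyte score of the same tumor, with R tumors in green, NR tumors in orange, open circles for isotype and filled triangles for aPD1. NR tumors lie at scores of 10.84 to 11.68 and R tumors at 11.41 to 12.62, and within a class no correlation over all tumors passed the test after adjustment, the highest r being 0.60 (Cpa4, R) and the lowest -0.58 (Itga7, NR).

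Some pairs of the 5 genes also correlated among NR tumors. The 20 correlations (10 pairs in 2 classes) were looked at after single values had been seen, and their points share library, line and antibody. The permutation exchanged tumors of a class freely across lines and antibodies, so the part of either in these values was not tested. The value of r was positive for 9 of 10 pairs in NR tumors (median 0.65) and 8 of 10 in R tumors (median 0.36). No share of positive values among pairs of other genes is given here, so these counts are not read as particular to the 5 genes. Over the 11 NR tumors Cpa4 and Itga7 had r = 0.86 (permutation p = 0.00071, adjusted p = 0.0142) and rho = 0.90 (permutation p = 0.00046, adjusted p = 0.0092). Cyp2d22 and 5330416C01Rik had r = 0.82 (permutation p = 0.00257, adjusted p = 0.0223) and rho = 0.76 (permutation p = 0.00837, adjusted p = 0.0419). Itga7 and 5330416C01Rik had r = 0.80 (permutation p = 0.00334, adjusted p = 0.0223) and rho = 0.85 (permutation p = 0.0018, adjusted p = 0.018).

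Cpa4 and 5330416C01Rik passed by rank only, with r = 0.71 (permutation p = 0.0151, adjusted p = 0.0664) and rho = 0.81 (permutation p = 0.00396, adjusted p = 0.0264), and without the 2 tumors farthest from the median of Cpa4 they passed by r only (r = 0.91, permutation p adjusted = 0.0306).

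No pair passed in R tumors over all libraries, where Cpa4 and Itga7 had r = 0.32 (permutation p = 0.318, adjusted p = 0.508) and rho = 0.34 (permutation p = 0.276, adjusted p = 0.501). In the 10 deep R libraries Cyp2d22 and 5330416C01Rik passed by rank only, with rho = 0.88 (permutation p adjusted = 0.038) and r = 0.79 (permutation p adjusted = 0.0709). Without the 2 tumors farthest from the median of the first gene, the 3 pairs that passed by both measures in NR tumors had r = 0.85, 0.62 and 0.55 in the order given, and in the 7 deep NR libraries r = 0.88, 0.63 and 0.69, none past the threshold after adjustment. Whichever single tumor was left out, the pair of Cpa4 and Itga7 passed. The pair of Cyp2d22 and 5330416C01Rik did not pass without the first CC036F1 isotype tumor (r = 0.80), the second CC036F1 aPD1 tumor (r = 0.74) or the second CC079F1 isotype tumor (r = 0.75). The pair of Itga7 and 5330416C01Rik did not pass without the first CC036F1 isotype tumor (r = 0.79), the second CC079F1 isotype tumor (r = 0.73) or the first CC080F1 isotype tumor (r = 0.70). Gap43 had r from -0.06 to 0.24 against the other genes over the 11 NR tumors. In the 7 deep NR libraries its r was 0.31 with Cpa4, 0.57 with Itga7, 0.12 with Cyp2d22 and 0.52 with 5330416C01Rik. Over all R tumors its r ran from -0.24 with Cpa4 to 0.49 with Cyp2d22.

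Genes whose levels were most like each member after class means were subtracted (Pearson r over 23 tumors, among 12055 genes, as a description) are named next. For Itga7 they were Arhgef28 (r = 0.83), the actin filament-associated Afap1 (0.83) and the sialyltransferase St3gal1 (0.83). For Cyp2d22 they were Col4a5, a basement membrane collagen chain (0.88), the tetraspanin Cd82 (0.86) and the proteoglycan Sdc2 (0.85). For 5330416C01Rik they were the transcription regulator Zbtb7c (0.91), the semaphorin Sema4c (0.89) and the ubiquitin ligase Nedd4 (0.89). For Gap43 they were the protease inhibitor Reck (0.77), Ranbp6 (0.76) and Crmp1 (0.72), a collapsin response mediator of growing neurites, and for Cpa4 they were the phosphoinositide phosphatase Ocrl (0.73), the aldo-keto reductase Akr1b10 (0.68) and Ist1 (0.68).

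Partner genes from lists of each family showed which of their relatives moved. Class fits of these lists treated the tumors of a line as independent. Of 9 partners and ligands of integrin α7 tested, 2 were lower in R and none higher (6.78% and 7.66% over all genes tested), with a median log2 difference of -0.04 against about 0 over all genes tested. Lama2, the α2 chain of the laminin that integrin α7β1 binds in muscle, had a mean of 89.8 ± 43.5 (SD) normalized counts over the 12 R tumors against 199 ± 77.1 (SD) over the 11 NR tumors. Its log2 difference was -1.14 ± 0.24 (SE; DESeq2 adjusted p = 0.000123), it was -1.11 in the deep libraries and -1.53 with the leukocyte score as a term, and edgeR called it as well (adjusted p = 0.00581). Itgb1, the β1 chain that pairs with α7, differed by -0.11 ± 0.03 (SE; DESeq2 adjusted p = 0.00126).

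Of 11 other integrin α chains tested, 2 were higher in R and none lower (7.66% and 6.78% over all genes tested), with Itga8 at a log2 difference of 1.54 ± 0.22 (SE; DESeq2 adjusted p = 1.36e-09) and Itga4, the α4 chain of leukocytes, at 0.93 ± 0.18 (DESeq2 adjusted p = 1.55e-05). Itga6, the chain of another laminin receptor, stood at -0.03 ± 0.12 and did not pass (DESeq2 adjusted p = 0.921).

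Of the carboxypeptidase A family and its inhibitors 4 genes were tested besides Cpa4, with 1 higher and 1 lower in R in DESeq2, 3 at an unadjusted p under 0.05 and none called by edgeR (6.7% of all genes). Rarres1, a latexin-like protein, differed by 1.38 ± 0.43 (SE; DESeq2 adjusted p = 0.0152) at a mean of 12.6 ± 6.91 (SD) normalized counts in R, and Lxn, the carboxypeptidase inhibitor latexin, by -0.22 ± 0.07 (DESeq2 adjusted p = 0.0259). The mast cell carboxypeptidase Cpa3 had means of 72.8 ± 45.4 (SD) and 72 ± 50.1 (SD) normalized counts in R and NR.

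Growth cone and neurite genes moved in both directions, with 3 higher and 3 lower in R of 10 tested besides Gap43, against 14.4% called in either direction over all genes, and edgeR called 3 of the 10. Tubb3, a neuronal β-tubulin, differed by 0.62 ± 0.15 (SE; DESeq2 adjusted p = 0.000972) and Marcks, a calmodulin-binding membrane protein as Gap43 is, by 0.34 ± 0.11 (adjusted p = 0.0245 in DESeq2). The adhesion molecules Nrcam, at -0.89 ± 0.23 (SE; DESeq2 adjusted p = 0.00173), and Ncam1, at -0.40 ± 0.10 (DESeq2 adjusted p = 0.00204), were lower in R, as Gap43 was. In the deep libraries, where 9.83% of all genes were called, 2 of the list were, Nrcam and Ncam1.

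Around Cyp2d22, none of 3 electron-transfer partners tested passed in DESeq2 or edgeR (1 at an unadjusted p under 0.05), with the P450 reductase gene Por at 0.06 ± 0.05 (SE; DESeq2 adjusted p = 0.448). Its relative Cyp2d26 reached at most 4.35 normalized counts in any tumor. Reads of CYP2D genes can be shared between near-identical copies, and the authors' estimate splits such reads, so the Cyp2d22 level carries that uncertainty.

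**Figure D4:**
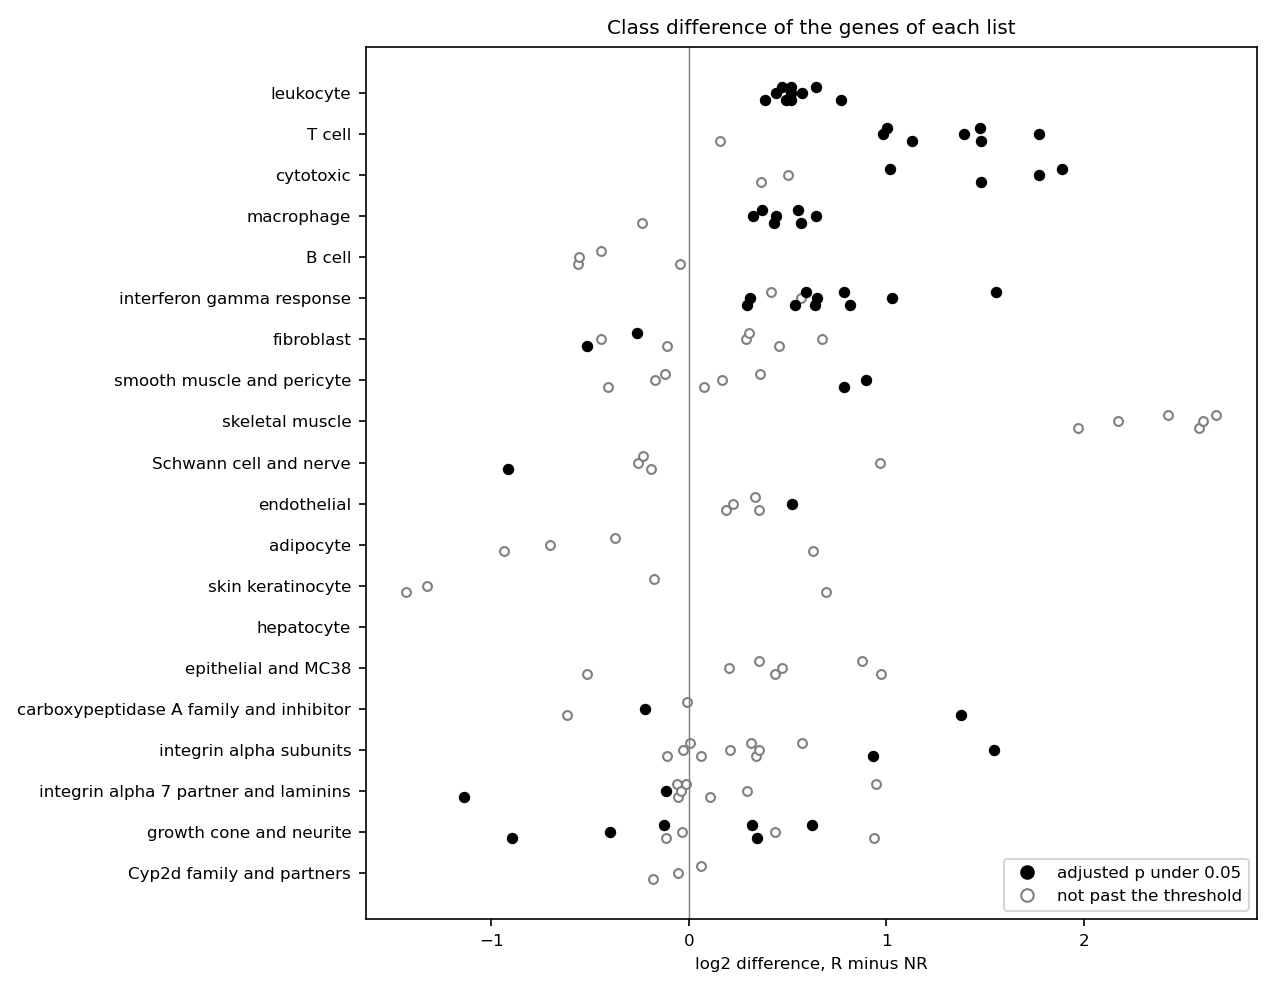
log2 difference of R minus NR for each tested gene of 20 lists, without the 5 genes described here; filled points have a DESeq2 adjusted p under 0.05. The 10 leukocyte genes and 7 of 8 T cell genes lie to the right of 0 as filled points, while the partner lists hold filled points on both sides, with Lama2 the lowest at -1.14.

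Markers of host cell types in which these genes are known were read beside them, since a tumor sample can hold tissue from its surroundings, and their part in the class difference was not tested. Skeletal muscle transcripts, summed over 8 genes, ran from 21.7 to 21516 normalized counts in R tumors and from 19.5 to 8169 in NR tumors, with none of 6 tested genes called over all tumors by DESeq2 (4 at an unadjusted p under 0.05) or edgeR, and all 6 called in the deep libraries by DESeq2, with higher levels in R. The muscle satellite cell marker Pax7 was at 0 in 22 tumors and Myog at 0 in 17.

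Of the Schwann cell and nerve genes, 1 of 5 tested was lower in R, namely Cdh19 at -0.91 ± 0.27 (SE; DESeq2 adjusted p = 0.00904) with means of 19.8 ± 9.68 (SD) and 37.7 ± 14.7 (SD) normalized counts in R and NR. Their summed level was 107 to 273 in R and 154 to 285 in NR tumors, and the defining factor Sox10 was at 0 in 8 tumors and at 11.4 or less in the rest. Of 8 fibroblast genes 2 were lower in R, Pdgfra at -0.51 ± 0.15 (SE; DESeq2 adjusted p = 0.00766) and Dcn at -0.26 ± 0.10 (adjusted p = 0.0486 in DESeq2), neither of them called in the deep libraries. Their summed level was 69297 to 118785 in R and 65046 to 99859 in NR tumors. Of 8 smooth muscle and pericyte genes 2 were higher in R, Tagln at 0.90 ± 0.16 (DESeq2 adjusted p = 5.13e-06) and Acta2 at 0.79 ± 0.24 (DESeq2 adjusted p = 0.0114).

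Endothelial genes had 1 of 5 higher in R (Pecam1), and adipocyte, skin keratinocyte and B cell genes had none called of 4 tested each, in DESeq2 or edgeR, and none at an unadjusted p under 0.05. Of the hepatocyte genes 2 were measured, Alb at 3.81 normalized counts or less in any tumor, and none was tested. Of 7 epithelial and MC38 genes tested none passed (DESeq2 or edgeR, and none at an unadjusted p under 0.05), and the keratins that define colon epithelium were low, Krt8 having means of 42.7 ± 46.9 (SD) and 33.2 ± 55.3 (SD) normalized counts in R and NR tumors and being at 0 in 2 tumors.

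Of 29 genes that neighbour the 5 on the genome, up to 3 on each side with a mean of at least 10 normalized counts, 5 were lower and 1 was higher in R, against 6.78% lower and 7.66% higher over all genes tested. Next to Cpa4, the imprinted gene Mest differed by 0.08 ± 0.30 (SE; DESeq2 adjusted p = 0.906) and Copg2 by -0.16 ± 0.04 (DESeq2 adjusted p = 0.00238). The largest change with a mean above 100 normalized counts was that of Arhgef28, which lies 152 kb from 5330416C01Rik and whose level was also the most like that of Itga7, at -0.67 ± 0.15 (SE; DESeq2 adjusted p = 0.000257). Below that mean, Olfr805, 763 kb from Itga7, differed by -1.67 ± 0.53 (SE; DESeq2 adjusted p = 0.0183). Tigit, 1308 kb from Gap43, was the 1 neighbour higher in R, at 1.19 ± 0.32 (SE; DESeq2 adjusted p = 0.00363). Some of these neighbours are distant, Tmem39a lying 3656 kb from Gap43. The lincRNA Gm26619, 3.70 kb from 5330416C01Rik on the other strand, stood at -0.39 ± 0.27 and did not pass (DESeq2 adjusted p = 0.381).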

How the data were processed

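RNA of 23 tumors was sequenced from poly(A) libraries. The authors mapped reads with Bowtie 1.2.3 to founder transcriptomes on GRCm38 and deposited expected counts per gene, estimates in which shared reads are split and which are not scaled for depth (16.95% were not whole). Names of 26681 of 26869 genes came from GENCODE vM21. Counts were rounded, and genes with at least 5 counts in a fit were tested with DESeq2 1.42.0 in R 4.3.3 (Wald tests of class with antibody as a term and of antibody with line as a term, likelihood ratio tests of line), with Benjamini-Hochberg adjustment over all genes and a threshold of 0.05. Alternatives were edgeR 4.0.16 (quasi-likelihood, TMM), other filters and scalings, deep libraries, depth or leukocyte score as a term, a replicate block and leaving out each tumor. The fits were tested on simulated data with known changes, in which the share of false calls lay above the threshold, most of all for the line tests. Class fits treat tumors of a line as independent. Correlations used log2(normalized count + 1) and two-sided permutation tests (100000 resamples, scipy 1.17.1).

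The 5 genes and all 20 lists were chosen with earlier results of these data known, and correlations between the genes were added after values had been seen. Besides the 5 genes, the text names the 3 genes most like each, up to 3 neighbours per side, and up to 2 rising and 2 falling class calls per list, with other list genes where a marker at or near 0 or a partner of a member is stated. Not all of these are named. Same-numbered tumors of a line are not described as pairs.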

Additional observations from a re-analysis of the deposited data

How the results depend on the processing

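The class difference of the 5 genes, which chose them in these same tumors, kept its direction under every alternative run. Of the counts over all genes, the leukocyte score as a term gave 106 class, 38 antibody, 357 NR line and 299 R line calls (2548, 464, 1602 and 200 without it), deep libraries gave 1668 class calls and 232 antibody calls (2548 and 464 in all libraries) and edgeR gave 15 antibody calls and 87 line calls in R lines (464 and 200 in DESeq2). Leaving out single tumors gave 155 to 801 antibody calls (without the second and the first CC001F1 aPD1 tumor) and 165 to 330 line calls in R lines (highest without the first CC001F1 aPD1 tumor). The antibody change reversed in deep libraries for Cpa4 (0.28), Itga7 (0.16) and Cyp2d22 (0.24), and with the leukocyte score as a term for 5330416C01Rik (0.0013). Leaving out single tumors it ran from -0.30 to 0.074 for Cpa4, from -0.18 to 0.059 for Itga7, from -0.30 to -0.026 for Cyp2d22 and from -0.35 to -0.032 for 5330416C01Rik. The line differences of Cpa4 in NR lines had DESeq2 adjusted p = 0.0274 to 0.948 over left-out tumors, lowest without the CC080F1 aPD1 tumor. Without the 2 farthest tumors the correlation with the leukocyte score turned to 0.57 for Gap43 in NR, and to 0.36 in R and 0.24 in NR for 5330416C01Rik. With the T cell list it turned to -0.19 for Cyp2d22 in NR. After subtraction of line means that of Cpa4 in R passed by r (0.78) and not by rho (0.62). Over left-out single tumors it ran from 0.23 to 0.76 for Itga7 in R, from -0.62 to 0.081 for Gap43 in NR, from -0.087 to 0.20 in R and -0.040 to 0.36 in NR for Cyp2d22, and from -0.59 to 0.12 in R and -0.48 to 0.16 in NR for 5330416C01Rik. Between Gap43 and Cyp2d22 in NR it was 0.12 in deep libraries (-0.06 in all). For none of these changes was the cause tested.

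Same-numbered isotype and aPD1 tumors of a line shared deviations unevenly (r = -0.20 to 0.37 over 5 lines). With so few tumors in a line, these values cannot decide whether the numbers pair them. With the replicate block there were 2586 class and 431 antibody calls, the antibody change was -0.15 for Cpa4, -0.01 for Itga7, -0.35 for Gap43, -0.12 for Cyp2d22 and -0.21 for 5330416C01Rik, and no member's call changed. The shallow libraries carry the larger counting error, and the lowest level of a member in any tumor was 33.3 normalized counts.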
